A study of Mus musculus with 6 samples.

Results

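The globin and red blood cell genes followed here are Hba-x, Hbb-y, Hbb-bh1, Hba-a1, Hbb-b1, Alas2, Slc4a1, Ahsp and Klf1, and their signals were read in the retinas of individual mouse embryos as a record of blood in the dissected tissue. Every probe set that the array annotation ties to 1 of these genes alone was taken, without regard to its signal. This gave 13 of the 45037 probe sets of the array and covered 7 of the 9 genes: 3 probe sets each for Hbb-y, Hbb-bh1 and Slc4a1, and 1 each for Hba-x, Hba-a1, Alas2 and Klf1. Hbb-b1 was read only by a probe set shared with other adult beta globin genes, and Ahsp was not analysed here.

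The series holds 6 arrays, 1 for each embryo: 3 WT and 3 OC1-KO retinas at stage E14, numbered 1 to 3 within each genotype. The OC1-KO embryos lack the transcription factor gene Onecut1 throughout the body, not in the eye alone, and Onecut1 also acts in liver development. WT and OC1-KO embryos were littermates of a mixed background that descends from R1 ES cells, a "Swiss" strain and some generations of crossing to C57Bl/6, and no embryo received a treatment. The embryos numbered 3 carry sample numbers apart from the consecutive ones of the other embryos. The sources used here do not say whether embryos with the same number share a dam, a dissection day or a hybridization.

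Red blood cells of the embryo come in 2 waves. Primitive cells from the yolk sac enter the circulation first and carry the embryonic chains, zeta from Hba-x with epsilon y from Hbb-y and beta h1 from Hbb-bh1, while definitive cells from the fetal liver carry the adult chains from Hba-a1, its neighbour Hba-a2 and the adult beta genes. Alas2 performs the first step of haem synthesis in erythroid cells, Slc4a1 encodes the band 3 anion exchanger of the red cell membrane, Ahsp is a chaperone of free alpha globin, and Klf1 is a transcription factor that activates beta globin and other erythroid genes.

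Promoter sequences show what these genes have in common outside the arrays. RefSeq windows of assembly GRCm38.p6 matched 5 of the 9 genes (Hba-x, Hbb-y, Hba-a1, Alas2 and Klf1), and the 250 bases before the start are printed for the 4 that represent the embryonic chains, the adult alpha chain and haem synthesis. Capitals mark every match, on either strand, of 4 motifs. GATAA is the core that GATA factors bind, and CCNCNCCC is the kind of box that Klf1 binds. Promoters of many genes hold CCAAT or, near their start, the letters TATAA. Hba-x lies on the plus strand at chr11:32276350-32276599 and Hba-a1, also on the plus strand, at chr11:32283422-32283671 in the same alpha globin cluster. The window of Hbb-y is on the minus strand at chr7:103853208-103853457, and that of Alas2 on the plus strand at chrX:150547167-150547416.
Hba-x: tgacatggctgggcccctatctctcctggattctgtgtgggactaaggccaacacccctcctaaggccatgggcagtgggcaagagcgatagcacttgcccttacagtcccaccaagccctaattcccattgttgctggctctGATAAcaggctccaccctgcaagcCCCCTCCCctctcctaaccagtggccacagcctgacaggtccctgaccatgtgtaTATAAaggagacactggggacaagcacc
Hbb-y: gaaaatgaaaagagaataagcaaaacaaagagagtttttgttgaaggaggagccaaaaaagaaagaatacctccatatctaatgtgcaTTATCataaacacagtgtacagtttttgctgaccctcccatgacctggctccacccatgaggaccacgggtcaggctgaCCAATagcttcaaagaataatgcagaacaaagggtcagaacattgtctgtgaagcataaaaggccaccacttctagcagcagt
Hba-a1: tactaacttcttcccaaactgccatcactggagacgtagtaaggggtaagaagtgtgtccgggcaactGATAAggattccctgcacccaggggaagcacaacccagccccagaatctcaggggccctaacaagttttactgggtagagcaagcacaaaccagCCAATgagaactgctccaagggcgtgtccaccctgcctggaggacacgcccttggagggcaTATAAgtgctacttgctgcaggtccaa
Alas2: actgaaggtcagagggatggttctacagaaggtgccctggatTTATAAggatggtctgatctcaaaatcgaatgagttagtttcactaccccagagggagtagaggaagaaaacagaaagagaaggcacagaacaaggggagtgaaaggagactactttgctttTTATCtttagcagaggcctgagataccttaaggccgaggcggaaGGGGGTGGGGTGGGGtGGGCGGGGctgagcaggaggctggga

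GATAA occurred in all 5 of the matched windows, Klf1 included, and in 22.6% of the 32851 windows of the same length in the table. On the plus strand it ended 103 bases before the start of Hba-x and 178 before that of Hba-a1. In Hbb-y, Alas2 and Klf1 it lay on the minus strand, so it reads TTATC in the Hbb-y and Alas2 windows printed above. The Klf1 window is not printed. Another of the 4, CCAAT, was found in Hbb-y, Hba-a1 and Klf1 and in 33.8% of all windows. CCNCNCCC was found in Hba-x and, as 4 matches on the minus strand of which the first 3 overlap, in Alas2, and in 45.9% of all windows. TATAA was present in Hba-x and Hba-a1 close to the start, in Alas2 only further upstream, where a match on each strand overlaps the other, and in 22.8% of all windows. Each match is a run of letters and was not tested as a binding site.

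Values are log2 of the MAS5 signal, the array software's background-corrected summary of a probe set, so a difference of 1 is 2-fold. The array median on the linear scale was 85.0 in OC1-KO 3 and 97.3 to 104 on the other arrays. The share of probe sets above a log2 signal of 7 was 43.4% in OC1-KO 3 and 45.5% to 46.7% on the others. This limit of 7 is the expression minimum that the study applied to a genotype mean. Control probe sets at the 3' and 5' ends of a transcript set the embryos numbered 3 apart. Their log2 ratio of 3' to 5' signal for Gapdh was -0.42 in WT 3 and -0.49 in OC1-KO 3, against -0.27 to -0.24 on the other arrays. For beta actin it was 0.66 and 0.45, against 0.76 to 1.11. Any bearing of these ratios on the globin values was not tested. Low MAS5 signals have no detection call in the table used here, so a value of 1 to 5 may be background and differences between such values carry no order. All 14 measured retina genes exceeded 7 on all 6 arrays, among them Atoh7 (14.19 to 14.83) and Nefl (13.75 to 14.52). Onecut1 itself read 8.43 to 9.30 in WT and 7.51 to 9.67 in OC1-KO over its 2 probe sets. Their position relative to the deletion is unknown here, and they do not check the genotype. The p-values measure the spread between embryos, 1 retina array each.

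Hbb-y, the embryonic epsilon y chain, was the 1 gene of the 7 to reach the expression minimum, and it did so only through the embryos numbered 3: on its leading probe set numbers 1 and 2 averaged 6.65 in WT and 6.87 in OC1-KO. On that probe set, 1436823_x_at, the WT embryos 1, 2 and 3 read 8.09, 5.22 and 13.85 and the OC1-KO embryos 1, 2 and 3 read 4.50, 9.25 and 14.34. Both embryos numbered 3 lay far above the other 4, and the genotypes overlapped. Another probe set, 1436717_x_at, read 8.20, 5.11 and 13.83 in WT and 4.43, 9.27 and 14.30 in OC1-KO, so close to the first that the pair may share probes. 1450621_a_at read 6.62, 4.52 and 12.46 in WT and 1.46, 7.14 and 13.22 in OC1-KO, the same order of arrays with a lower floor. The suffix x marks probe sets whose probes can match other sequences, and the beta globin genes resemble each other; how much of the Hbb-y signal its neighbours gave was not tested.

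Hba-x, the zeta chain that pairs with the embryonic beta chains, read 5.97, 4.05 and 10.15 in the WT embryos and 2.91, 6.32 and 11.18 in the OC1-KO embryos, in the order of their numbers. The order of its 6 arrays was that of Hbb-y, with OC1-KO 3 highest and OC1-KO 1 lowest. Hbb-bh1, the beta h1 chain, was dim outside the embryos numbered 3. Its leading probe set, 1437810_a_at, read 1.23, 4.50 and 7.29 in WT and 1.64, 3.47 and 7.72 in OC1-KO. The other 2 probe sets agree on 7.34 to 7.72 in the embryos numbered 3 but put WT 2 at 0.83 and 0.93, not at 4.50, and 1450736_a_at put WT 1 at 3.93, against 1.21 to 1.23 on the other 2. Below a signal of about 5 the probe sets of this gene therefore disagree on which embryo is lowest.

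The adult chains were carried by shared probe sets. Hba-a1 has 1 probe set of its own, 1453574_at, which stayed dim at 2.76, 2.14 and 4.62 in WT and 2.59, 3.06 and 2.81 in OC1-KO, with WT 3 highest and OC1-KO 3 among the other 4. This probe set ranked between the percentiles 7.33 and 24.8 of its arrays. The brightest of the 3 probe sets shared by Hba-a1 and Hba-a2, 1428361_x_at, read 11.84, 8.77 and 14.81 in WT and 8.84, 11.59 and 14.96 in OC1-KO. The probe set shared by Hbb-b1, Hbb-b2, Hbb-bs and Hbb-bt, 1417184_s_at, read 10.83, 8.95 and 14.54 in WT and 7.98, 11.00 and 14.97 in OC1-KO. In the embryos numbered 3 the shared adult probe sets were at or above the percentile 97.1 of the array, and the lowest value of each, in WT 2 or OC1-KO 1, lay between the percentiles 39.0 and 72.3. Which of the genes behind a shared probe set gave the signal cannot be told from it, and the adult beta genes present differ between mouse strains.

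Of the erythroid genes other than globins, Alas2 separated the embryos most sharply. It read 1.70, 2.83 and 8.53 in WT and 2.27, 2.31 and 9.20 in OC1-KO, with the 4 embryos numbered 1 and 2 within 1.13 of each other and 5.69 below the lower of the embryos numbered 3. Slc4a1 read 4.99, 4.80 and 7.01 in WT and 4.54, 4.64 and 7.33 in OC1-KO on its leading probe set, 1434502_x_at, and 4.53, 2.85 and 7.63 against 3.82, 2.92 and 8.46 on 1416464_at. Its remaining probe set, 1431743_a_at, lay between 0.14 and 1.71 on every array and did not follow the others. Klf1 read 5.43, 5.97 and 6.36 in WT and 6.33, 6.35 and 5.86 in OC1-KO, so its embryos numbered 3 lay among the rest. In bulk tissue, fewer red blood cells and less RNA per cell cannot be told apart.

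**Figure D1:**
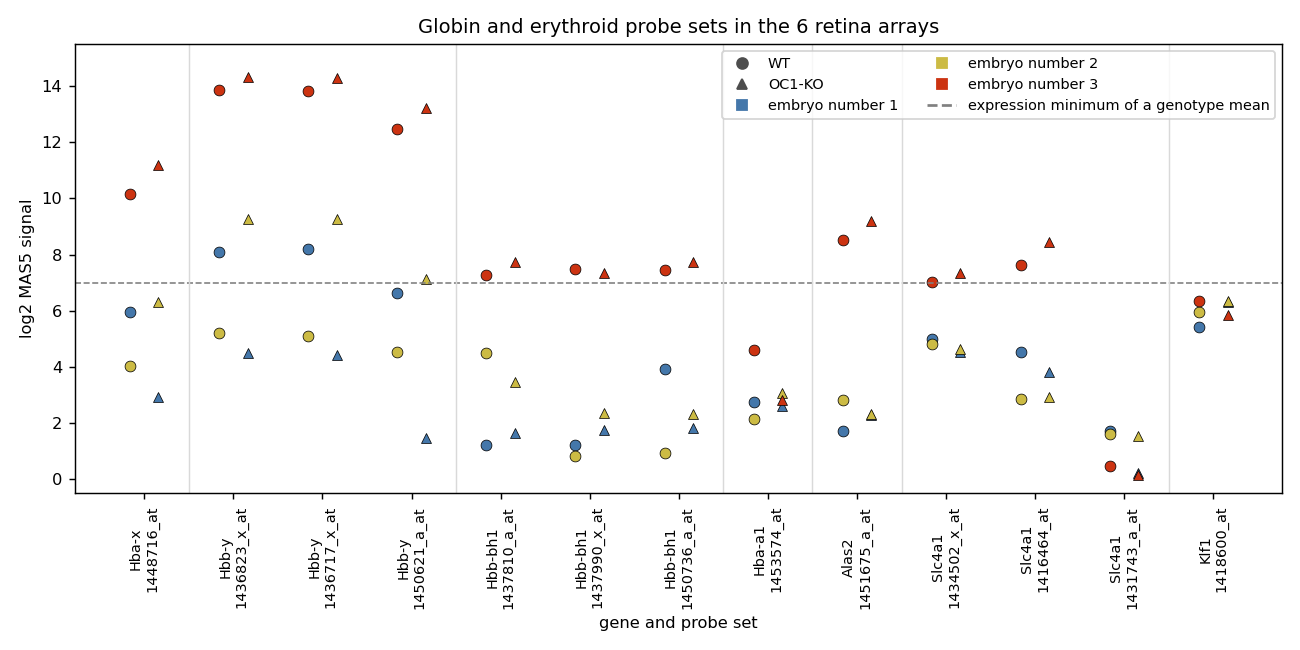
Log2 MAS5 signal (y axis) of the 13 probe sets (x axis, by gene) in the 3 WT embryos (circles) and the 3 OC1-KO embryos (triangles), coloured by embryo number; the dashed line is the minimum of 7 for a genotype mean. The red points of the embryos numbered 3 stand above all others for Hba-x, Hbb-y, Hbb-bh1, Alas2 and 2 of the 3 Slc4a1 probe sets, and lie among them for Hba-a1, Klf1 and the third Slc4a1 probe set.

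The first question was whether the retinas of the 2 genotypes differed in these genes. No globin or erythroid probe set differed between OC1-KO and WT beyond the spread between embryos. Mean log2 signals were 9.05 ± 4.40 in WT and 9.36 ± 4.92 in OC1-KO for Hbb-y, 6.72 ± 3.12 and 6.80 ± 4.15 for Hba-x, 4.34 ± 3.03 and 4.28 ± 3.12 for Hbb-bh1, and 4.35 ± 3.66 and 4.60 ± 3.99 for Alas2 (SD, n = 3 each, leading probe sets). Slc4a1 averaged 5.60 ± 1.22 and 5.50 ± 1.58, Klf1 5.92 ± 0.47 and 6.18 ± 0.28, and Hba-a1 3.17 ± 1.29 and 2.82 ± 0.23. For Hbb-y the difference OC1-KO minus WT was 0.31 with an SE of 2.90, and over the 13 probe sets the differences ran from -0.63 to 0.64, with 7 above 0 and 6 below, a median of 0.06 against -0.01 for all probe sets.

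By limma's moderated test, with Benjamini-Hochberg adjustment over the table, every one of the 13 had an adjusted p of 1.00, and the smallest unadjusted p was 0.288, for the dim Slc4a1 probe set 1431743_a_at. Across the array 0 of 20888 probe sets that reached the expression minimum were called (0%), with 210 at an unadjusted p under 0.05, and the methods' t-test called 0 after adjustment, with 206 unadjusted. The values of the genotypes did not overlap for 0 of the 13, against 5.49% of all 45037 probe sets. The exact two-sided permutation test, whose smallest p with 3 against 3 is 0.1, gave 0.2 at the lowest. Only the 3 Hbb-y probe sets reached the expression minimum (3 of 13), so the other 10 were fitted with all 45037 probe sets.

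Within the 3 pairs of embryos of the same number, 1 of the 13 probe sets differed in the same direction each time, against 23% of all 45037. It was the dim Slc4a1 probe set 1431743_a_at, with OC1-KO minus WT at -1.50, -0.048 and -0.33 on the log2 scale. On the leading probe set of Hbb-y, OC1-KO minus WT was -3.59 in pair 1, 4.04 in pair 2 and 0.49 in pair 3. Hba-x gave -3.05, 2.28 and 1.03 in pairs 1, 2 and 3. Embryo number as a block reduced the SE for Hbb-y from 2.90 to 1.36 and that for Alas2 from 2.63 to 0.33, and the unadjusted p of the 13 then reached 0.179 at the lowest, with every adjusted p at or above 0.999.

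**Figure D2:**
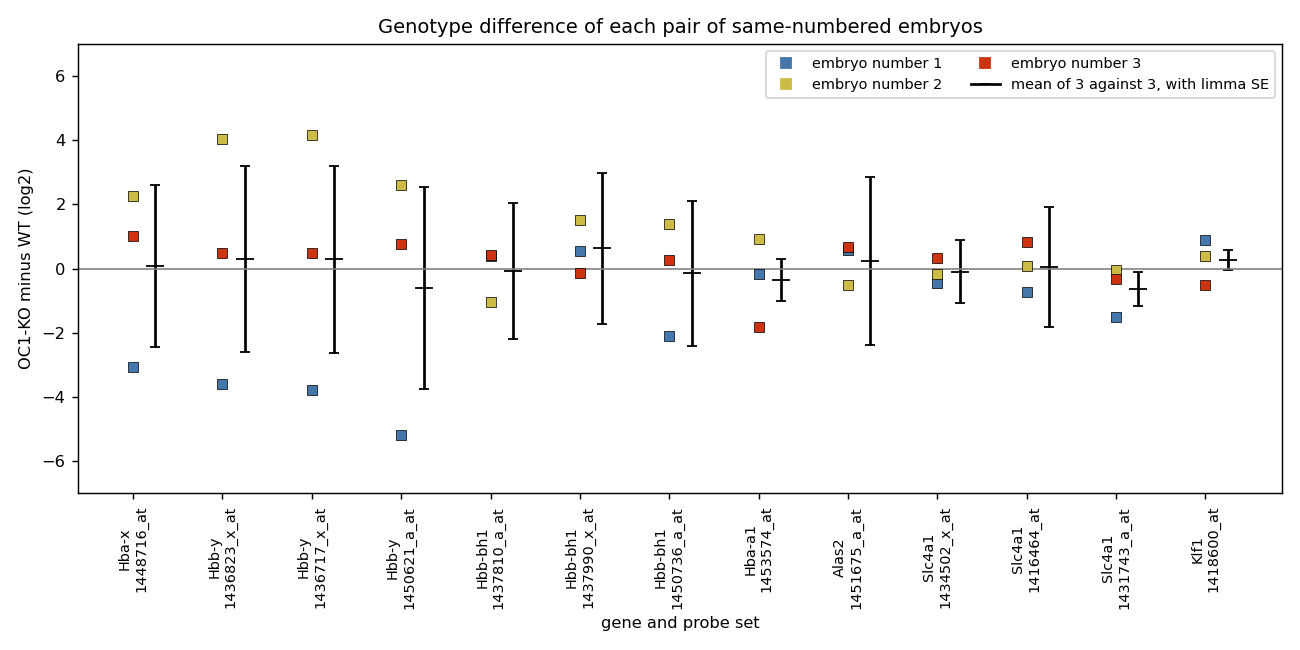
OC1-KO minus WT difference in log2 signal (y axis) for each of the 13 probe sets (x axis): squares are the 3 pairs of embryos of the same number, and the black bar is the difference of the means of 3 against 3 with its limma SE. For Hbb-y and Hba-x the pair numbered 1 lies below 0 and the pair numbered 2 above it, and every difference of means lies within 0.64 of 0.

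The embryos were then compared by their number, with both genotypes together. On 10 of the 13 probe sets, every one for Hba-x, Hbb-y, Hbb-bh1 and Alas2 and 2 for Slc4a1, both embryos numbered 3 lay above the other 4, a pattern seen in 11.1% of all 45037 probe sets. On 0 of the 13 did both lie below, against 18% of all. For these 10 the mean of the embryos numbered 3 exceeded that of numbers 1 and 2 by 2.42 to 7.90 on the log2 scale, and the lower of them exceeded the highest of the other 4 by 2.02 to 5.69. The differences were 7.33 with an SE of 1.45 for Hbb-y, 6.58 with an SE of 0.35 for Alas2, 5.85 with an SE of 1.33 for Hba-x, 4.79 with an SE of 0.42 for Hbb-bh1 and 2.42 with an SE of 0.24 for Slc4a1, each on the leading probe set. Klf1 differed by 0.09 with an SE of 0.37 and Hba-a1, on its own dim probe set, by 1.08 with an SE of 0.66. The shared adult globin probe sets, which are not among the 13, also had both embryos numbered 3 on top. They differed by 4.40 to 4.90 for the 3 of Hba-a1 and Hba-a2 and by 5.07 for the beta one. Since number 3 was singled out with earlier results of these arrays known, these differences describe the embryos.

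Limma's F test of embryo number with genotype as a covariate called 1111 of the 20888 probe sets (5.32%), of which 437 were higher and 674 lower in the embryos numbered 3. The 3 Hbb-y probe sets entered the F test only through the embryos numbered 3, in which they are high. They were not among the 1111, with adjusted p-values from 0.0729 to 0.0808 and unadjusted p-values from 0.00826 to 0.0110. Their p-values therefore describe members admitted by those embryos, also under the settings in which they passed. They passed the threshold without the genotype term (adjusted p 0.0415 to 0.0466), without WT 1 (0.0369), after centring each array on its median and on the scale of log2(signal + 50), where the difference for the leading probe set was 6.52. The count of 1111 was not stable: it fell in every fit that left out 1 array, except the fit without WT 1. Such a fit leaves 1 array for 1 of the embryo numbers and less to estimate the spread from. The fall can therefore not be assigned to particular arrays. Among all 45037 probe sets, which hold the other 10, 0 were called by limma's F test, with 5718 at an unadjusted p under 0.05 and the lowest adjusted p at 0.349; 8 of the 13 were among the 5718, Alas2 with an unadjusted p of 3.78e-04 and Hbb-bh1 with 0.00154.

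The size of the difference depends on how low signals are treated. On the log2(signal + 50) scale, which compresses dim values, it was 3.23 for Alas2, 4.28 for Hba-x, 1.97 for Hbb-bh1 and 1.33 for Slc4a1, with the same direction for each.

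The embryos numbered 1 and 2 also differed among themselves in the globins. Among these 4 arrays WT 1 and OC1-KO 2 held the 2 highest values on 6 of the 8 globin probe sets of Hba-x, Hbb-y, Hbb-bh1 and Hba-a1 and on 4 of the 4 shared adult ones, an order found in 16% of all probe sets and noticed after the values were seen. For 2 of the 6, Hba-a1 and Hbb-bh1 on 1450736_a_at, the 4 values lay below 5, where they carry no order. The other 4, Hba-x and the 3 of Hbb-y, are those of the 8 with a value over 5 in these embryos, and among all 36658 such probe sets 15.2% had the order. Over these 4 embryos Hbb-y spanned 4.75 log2 units on its leading probe set and Hba-x 3.41. Alas2 spanned 1.13 and Slc4a1 0.45, but at values below 5 that may be background, so these spans do not show that the 2 genes were steady. None of the 5 probe sets for Alas2, Slc4a1 and Klf1 had this order (0 of 5). In these embryos all values of Alas2 and Slc4a1 lay below 5, so only Klf1 could have shown it. Of 14 lens genes 4 (28.6%) had the order, Crybb1, Cryba1, Cryba4 and Crygd. The values of Cryba4 all lay below 5 as well, and of the 10 lens genes with a value over 5, 3 had the order (30%). The values of number 1 (8.09 and 4.50 for Hbb-y) overlapped those of number 2 (5.22 and 9.25), and the values of number 3, 13.85 and 14.34, overlapped neither.

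Between the embryos numbered 3, with 1 array a genotype and no test, OC1-KO 3 read higher than WT 3 on 9 of the 10 probe sets with both embryos numbered 3 on top, against 42.5% of all 45037 probe sets. The 10 belong to Hba-x, Hbb-y, Hbb-bh1, Alas2 and Slc4a1 alone and are no replicates of each other. They were also picked for being high in these same arrays, so the share over all probe sets is not a like base. The differences were 1.03 for Hba-x, 0.83 for Slc4a1 on 1416464_at, 0.67 for Alas2 and 0.49 for Hbb-y, and -0.15 for Hbb-bh1 on 1437990_x_at.

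**Figure D3:**
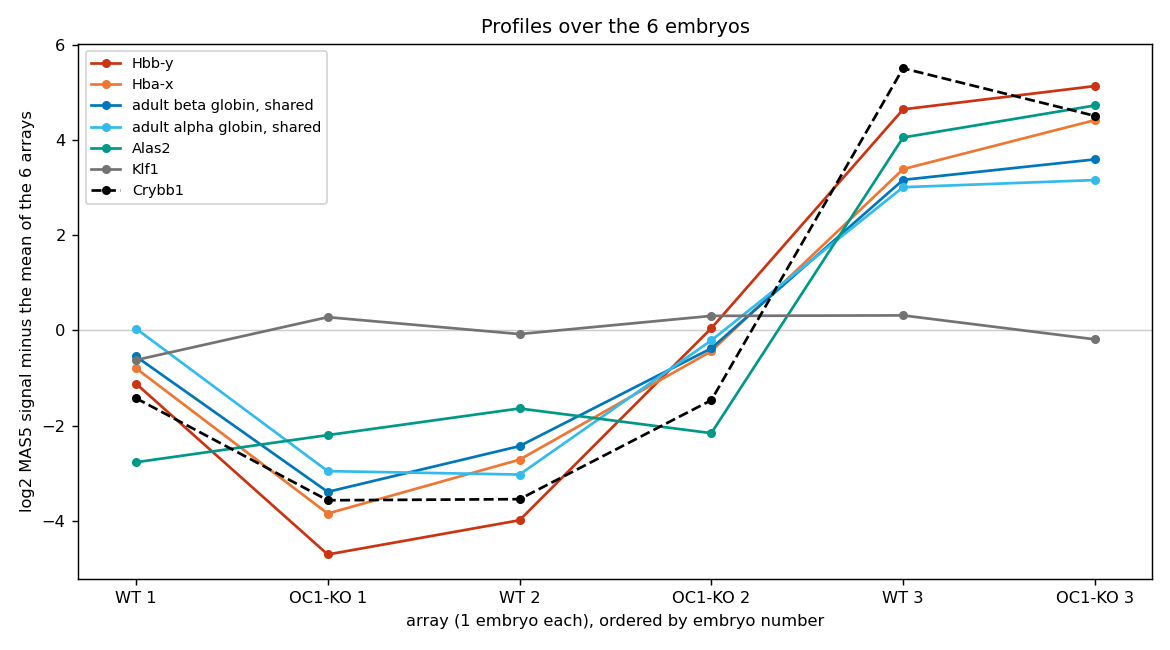
Log2 signal minus the mean of the 6 arrays (y axis) for the leading probe sets of Hbb-y, Hba-x, Alas2 and Klf1, for the shared adult beta and the brightest shared adult alpha globin probe set, and for the lens gene Crybb1 (dashed); arrays are ordered by embryo number (x axis). The globins, Alas2 and Crybb1 are highest in WT 3 and OC1-KO 3, the globins and Crybb1 also separate WT 1 and OC1-KO 2 from OC1-KO 1 and WT 2, and Klf1 stays flat.

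The wider erythroid program was read through 6 lists of related genes, each gene by its leading probe set. Of 6 globin genes measured, 4 had both embryos numbered 3 above the other 4 and 0 below, with a median difference of 3.76, against 13.1% of 18193 genes above, 16.4% below and a median of -0.03. The 4 are Hba-x, Hbb-y, Hbb-bh1 and the adult gene Hbb-b2, which read 6.62, 5.84 and 8.50 in WT and 4.87, 5.09 and 8.14 in OC1-KO. Hba-a2 on its own probe set differed by -0.52.

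In haem synthesis and mitochondrial import 9 of 15 genes lay above and 3 below (Uros, Ppox and Abcb10), with a median difference of 0.35. Slc25a37, mitoferrin, which brings iron into the mitochondria of erythroid precursors, was the 1 gene of the 6 lists that limma's F test called, at 8.04, 8.54 and 9.59 in WT and 7.99, 7.91 and 9.87 in OC1-KO, a difference of 1.61 with an SE of 0.21 and an adjusted p of 0.0424. Without 1 array its adjusted p ran from 0.0534 (without WT 1) to 0.168 (without OC1-KO 3), so the call was lost with each array left out. Cpox, which oxidizes coproporphyrinogen, differed by 1.00, and Ppox, which acts one step later, by -0.58. Their adjusted p-values by the F test over all 3 numbers were 0.0650 and 0.0717. For Cpox number 1 also lay below number 2, at 7.05 against 7.77 in WT and 5.82 against 7.12 in OC1-KO. Haem is made in every tissue, and 14 of the 15 reached the expression minimum.

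In the other 4 lists the share of genes with both embryos numbered 3 on top was 11.1% for iron uptake, 10.5% for the membrane skeleton, 22.2% for transcription factors and 36.4% for maturation, against 13.1% of all genes. In iron uptake 1 of 9 genes lay above (the ferritin gene Fth1) and 2 below (the transferrin receptor gene Tfrc and Ireb2). The genes nearest to a difference between numbers were Slc11a2, Aco1 and Tfr2. Their number 3 differed from the others by -0.24, 0.31 and -0.23. Number 1 stood apart for Slc11a2, at 7.63 and 7.94 against 7.15 to 7.44, and for Aco1, at 11.40 and 11.50 against 11.75 to 12.17. In the membrane skeleton list 2 of 19 lay above, Slc4a1 and the Rh blood group gene Rhd, which differed by 1.11, and 2 below, Cldn13 at -1.62 and Add2 at -0.40. Cldn13 read 1.99 in WT 3 and 1.87 in OC1-KO 3 against 2.00 in OC1-KO 2, signals so dim that its place below carries no order. Of 18 erythroid transcription factors 4 lay above (Zfpm1, Ldb1, Zbtb7a and E2f2) and 3 below (Foxo3, Nr2c1 and Nr2c2), with a median of 0.07. Gata1, the GATA factor of the lineage, differed by -0.13, Foxo3 by -0.82, Zbtb7a by 0.54 and Gfi1b by -1.61. Of 22 maturation genes 8 lay above and 3 below (Bpgm, Xpo7 and Ypel4), with a median of 0.19, and the 3 with the smallest p, the catalase gene Cat, the biliverdin reductase gene Blvrb and the lipoxygenase gene Alox15, differed by 0.47, 0.95 and 2.41. None of these 3 was called, and Alox15 was dim, at 1.06 to 2.80 in the embryos numbered 1 and 2, 3.87 in WT 3 and 5.08 in OC1-KO 3. Between OC1-KO and WT limma called 0 genes of the 6 lists. At an unadjusted p under 0.05 there were 1 of 52 that reached the expression minimum, Tmod1 (0.72), which is 1.92% against 0.817% of all such genes, and 2 of 36 that did not, Xk (1.48) and Isg20 (-1.81), which is 5.56% against 5.75%.

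Markers of tissues around the retina were high in the embryos numbered 3 as well. Of 14 lens genes 12 had both embryos numbered 3 above the other 4 and 0 below, with a median difference of 5.78, and 5 were called by limma's F test (Crybb1, Crybb3, Cryba1, Cryba2 and Crygb), none of them without OC1-KO 1, OC1-KO 3 or WT 3. All 5 reached the expression minimum only through the embryos numbered 3, so these calls are no separate evidence that the genes are high there. Of the 437 called probe sets with a higher mean in number 3, 38 were kept in this way. No marker was at 0; the lens gene Cryaa read 2.26 to 4.09 in the embryos numbered 1 and 2. Their summed signal on the linear scale was 352 to 639 in the embryos numbered 1 and 2 and 14810 and 30100 in those numbered 3. Cryba1, a crystallin, read 5.71, 3.32 and 12.96 in WT and 4.99, 6.77 and 11.96 in OC1-KO, and Crygb, another, 4.87, 5.38 and 12.13 and 4.77, 6.34 and 10.99. For the periocular mesenchyme 8 of 11 genes lay above, with summed signals of 537 to 791 against 2734 and 3225, Col1a2 differing by 1.55 (called, adjusted p 0.0432, but 0.0369 to 0.183 without 1 array) and Col3a1 by 4.51. For the pigment epithelium 7 of 11 lay above, with summed signals of 492 to 960 against 1138 and 2479, Pmel differing by 1.78 and Mitf by 1.07. The part of these tissues in the globin values was not tested.

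Markers of other blood and vessel cells differed less in size, with list medians from -0.14 to 0.43. Their share of genes with both embryos numbered 3 on top was 44.4% for granulocytes, 35.7% for macrophages and 20% each for platelets and endothelium. It was 0% for hepatocytes, against 13.1% of all genes. Of 10 megakaryocyte and platelet genes 2 lay above (Pf4 and Ppbp), with summed signals of 878 to 1066 in the embryos numbered 1 and 2 and of 836 and 848 in those numbered 3, Gp1bb differing by -0.31 and the platelet chemokine gene Pf4 by 1.35. Of 15 endothelial genes 3 lay above (Cldn5, Egfl7 and Ramp2), with summed signals of 2162 to 2911 against 2166 and 2355, Kdr differing by -0.58 and Cldn5 by 0.52. Of 14 macrophage genes 5 lay above (Adgre1, Cx3cr1, Aif1, Mrc1 and Fcer1g), with summed signals of 1431 to 1650 against 1733 and 1996, Csf1r differing by 0.06 and C1qa by 0.45. Of 9 granulocyte genes 4 lay above (Prtn3, Ngp, S100a8 and S100a9), with summed signals of 416 to 437 against 584 and 710, Prtn3 differing by 0.30 and Ltf by -0.87; the 2 that differed by over 1 were S100a8 (2.65) and S100a9 (3.87). Of 8 hepatocyte genes 0 lay above, with summed signals of 173 to 203 against 82.0 and 196, Apoa2 differing by -2.46 and Apob by 0.05. The 14 retina genes had a median difference of 0.20 and summed signals of 105700 to 132600 against 128500 and 134500, and 1, Hes5, was called, with adjusted p-values of 0.0454 to 0.167 without 1 array. Hes5 was lowest in the embryos numbered 1, at 8.64 in WT and 9.01 in OC1-KO, and read 10.41 to 10.85 in the other 4, with number 3 no higher than number 2.

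**Figure D4:**
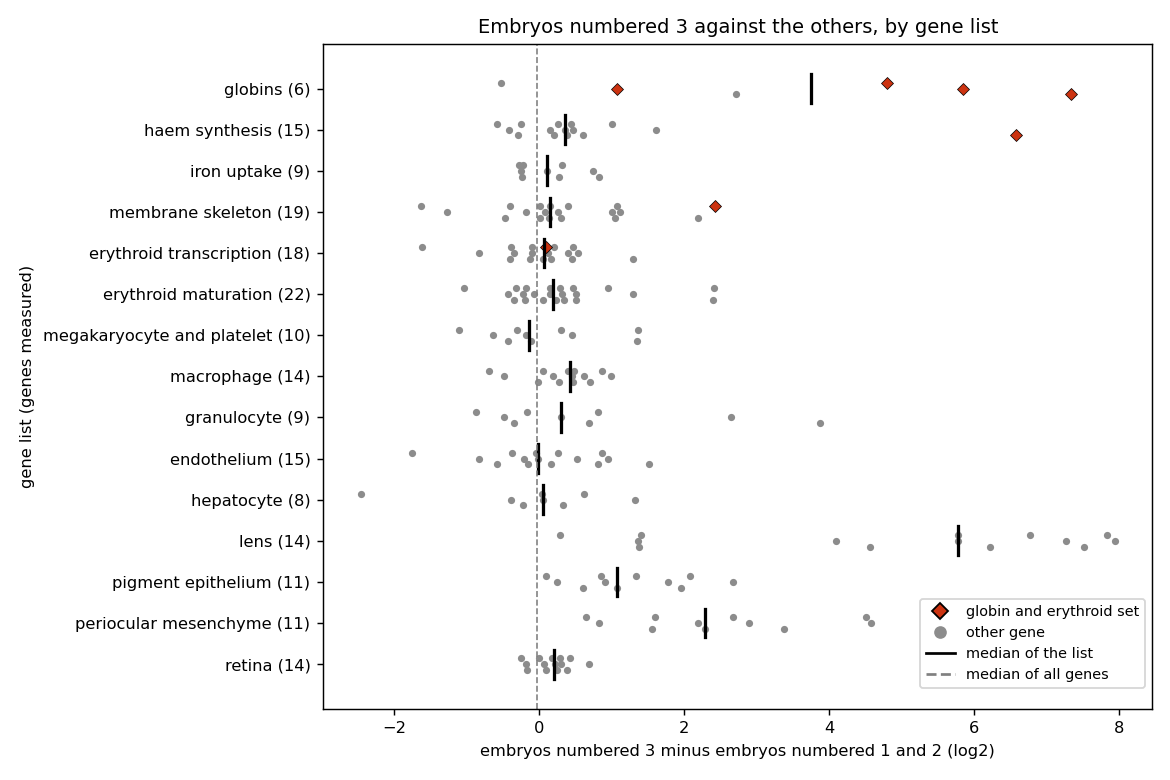
Log2 difference between the embryos numbered 3 and those numbered 1 and 2 (x axis) for each gene of 15 lists (y axis, number of genes measured in brackets); red diamonds are the globin and erythroid genes named at the start, grey points other genes, black lines list medians and the dashed line the median of all genes, -0.03. Hbb-y, Hba-x, Hbb-bh1, Alas2 and Slc4a1 stand to the right together with the lens (median 5.78) and mesenchyme (2.30) lists. Hba-a2 (-0.52) stands to the left on its own probe set, and the shared globin probe sets are not drawn. The medians of the erythroid transcription (0.07), platelet (-0.14), endothelial (-0.019) and retina (0.20) lists lie near 0, with single genes from -1.75 to 1.52.

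Profiles were compared over the 6 arrays by the root mean square difference from Hbb-y, after the mean of each probe set was removed. Among all 18192 other genes, a choice made after the values were seen, Hba-x was nearest (0.89), followed by the crystallin genes Crybb1 (0.91) and Cryba1 (1.08), while Alas2 ranked 13 (1.82) and Hbb-bh1 30 (2.31). Among the 10525 genes that reached the expression minimum and are not members, the 6 nearest were Crybb1, Cryba1, Crygb (1.52), Crygf (1.55), Crybb3 (1.59) and Cryba2 (1.98), all crystallin genes. The minimum shapes that order, since it leaves out genes of a like profile, the crystallin genes Cryba4 (1.18) and Cryga (1.39) among them. Hba-x and Alas2 are members and were left out whatever the minimum. Crybb1 read 5.43, 3.31 and 12.36 in WT and 3.28, 5.39 and 11.36 in OC1-KO. The likeness has a limit: in the embryos numbered 3 the lens genes were lower in OC1-KO 3 than in WT 3 for 13 of 14, all but Crygs, with a median of -0.97 and 1 array a genotype, whereas Hbb-y, Hba-x and Alas2 were higher there. Of the genes that reached the minimum, the 6 nearest to the dim Hba-a1 probe set, 2610316D01Rik, Zfp865, Kbtbd13, Snx11, St6galnac6 and Plekhm2, had root mean square differences of 0.40 to 0.45; with all genes as candidates other genes, led by Gsc (0.21), were nearer.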

How the data were processed

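Total RNA of 3 WT and 3 OC1-KO retinas was amplified, biotinylated and hybridized to Affymetrix mouse arrays, 1 for each embryo. The authors deposited linear intensity per probe set, made with MAS5, whose version the sources used here do not name; each array has a trimmed mean of 500 after 2% was trimmed. Log2 was taken, 64 control probe sets were left out, and 20888 with a genotype mean over 7 were kept. Of 45037 probe sets, 34945 map to 1 gene, 932 to several and 9160 to none. Tests used limma 3.58.1 in R 4.3.3 without an intensity trend; summaries used Python 3.11.15, pandas 2.3.3, scipy 1.17.1 and matplotlib 3.10.9. The fits were tested on simulated data.

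Arrays of the same embryo number pair in their values, with correlations of deviations from the group means of 0.509, 0.575 and 0.671, against -0.438 to -0.0371 for different numbers. Deviations within a genotype cancel out, so positive values for the same number make those for different numbers negative on average. No 2 arrays were duplicates (correlations 0.918 to 0.949). The members and lists were chosen with earlier results of these data known. The genes named are the members with all their probe sets (a gene's leading probe set is its brightest on average), the 3 other genes of each erythroid list with the smallest p for embryo number, the 2 brightest of each marker list, and the 6 nearest in profile to Hbb-y and to Hba-a1. Other genes were named to spell out small counts or after their values were seen. Alternatives were the replicate block, the methods' t-test, other scalings, log2(signal + 50), no filter, no genotype term, the mean of a gene's probe sets, leaving out arrays and, added after the values were seen, all genes as candidates for the nearest profile.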

Additional observations from a re-analysis of the deposited data

How the results depend on the processing

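For OC1-KO against WT, 0 probe sets were called in each of the 13 alternatives, with 154 (median centring) to 1305 (no filter) at an unadjusted p under 0.05, and with embryo number as a replicate block 0 were called and 913 were unadjusted. The 1111 probe sets called by embryo number became 3856 with each array centred on its median, 2289 on the scale of log2(signal + 50), 2369 with no genotype term and 0 with no filter, and ran from 0 to 1481 when 1 array was left out; the cause was not tested. Median centring moved the share of higher calls from 39.3% to 60.4% and the median difference of the kept probe sets from -0.04 to 0.10.

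Of 162 genotype differences of single probe sets under alternatives, 39 changed sign and 0 were called. Without one embryo they ran from -2.10 to 2.03 for Hba-x, from -2.20 to 2.74, -2.18 to 2.74 and -3.57 to 2.31 for Hbb-y, from -1.79 to 1.41, -1.13 to 2.80 and -2.04 to 1.52 for Hbb-bh1, from -0.87 to 0.37 for Hba-a1, from -2.06 to 2.33 for Alas2, and from -1.64 to 1.37 and -1.01 to 0.60 for Slc4a1, with each probe set taken in the order of its number. With the embryos numbered 1 and 2 alone, Hba-x was at -0.39, Hba-a1 at 0.37 and Slc4a1 on 1416464_at at -0.33. On the log2(signal + 50) scale Hbb-y on 1450621_a_at was at 0.22, Hbb-bh1 at 0.037 and, on 1450736_a_at, at 0.0031, and the leading Slc4a1 probe set at 0.0069. The mean of its probe sets put Hbb-bh1 at 0.14.

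Differences of number 3 from the others kept their direction for the 10 probe sets with both embryos numbered 3 on top. Leaving out 1 embryo gave -0.017 to 2.17 for Hba-a1 and -0.48 to 0.66 for Klf1. MAS5 signals far below 7 and 1 array per embryo limit what can be resolved: 10 of the 13 probe sets lie below the expression minimum in both genotype means.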
